A study of Gallus gallus with 12 samples.

Results

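A group of 104 genes, of 30108 in the deposited table, had more RNA where a Noggin bead had been placed than where a PBS bead had been placed, by 2- to 4-fold on the scale used here. The tissue was interdigital region 3 of the chicken hindlimb. Beads soaked in Noggin were implanted on one side and beads soaked in PBS, the vehicle control, on the other, in embryos of Hamburger-Hamilton stage 30, and interdigits were taken 12 h later. Each bead type was represented by 6 libraries, numbered 1 to 6 in the labels, and the labels do not say whether a library comes from one embryo. The genes were chosen by their measured CPM in the libraries numbered 1 to 5 (CPM, reads of a gene per 1000000 reads of its library). All 5 Noggin libraries had to lie above all 5 PBS libraries, the mean difference of log2(CPM + 1) had to be above 1 and at most 2, and the mean over the 10 libraries had to be at least 5 CPM. Of 10195 genes at or above that level, the 104 are 1.02%, and 5.28% had all 5 Noggin above all 5 PBS libraries whatever the size of the difference. Number 6 was held out of this choice because its 2 libraries run against their labels, which is described further on, and throughout they are called the libraries labelled Noggin 6 and PBS 6.

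Noggin is an extracellular antagonist of bone morphogenetic proteins (BMPs): it binds these ligands and keeps them from their receptors. In the limb bud, BMPs made by interdigital mesenchyme are known to promote the programmed cell death that frees the digits, and blocking them there is known to preserve the tissue. Within a study of BMPs, reactive oxygen species and interdigital cell death, the comparison asks which transcripts differ in level when Noggin is supplied. The files give Ensembl chicken gene identifiers without symbols, and 0 of the identifiers could be paired with a symbol in the reference table used here. The genes are therefore described by identifier or by their rank in mean CPM, with no function assigned, and neither the tissue label nor the presence of other cell types was checked against marker genes.

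Depth was 2019491 to 3513398 reads in the Noggin libraries 1 to 5 and 1624309 to 2767417 in the PBS libraries 1 to 5. In number 1 the order was the other way, with 2567768 reads in the Noggin library and 2767417 in the PBS library. The libraries labelled Noggin 6 and PBS 6 held 1946971 and 2317148 reads. The 104 genes together took 0.585% to 0.617% of the reads in Noggin 1 to 5 and 0.217% to 0.271% in PBS 1 to 5, so the whole group is a small part of the RNA. Within each library the exact binomial 95% interval of this share was narrow, for example 0.576% to 0.594% in Noggin 1 and 0.265% to 0.277% in PBS 1. PCR copies are not independent molecules, so these intervals cover counting error only. In whole tissue, more cells of a type and more RNA per cell cannot be told apart.

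**Figure D1:**
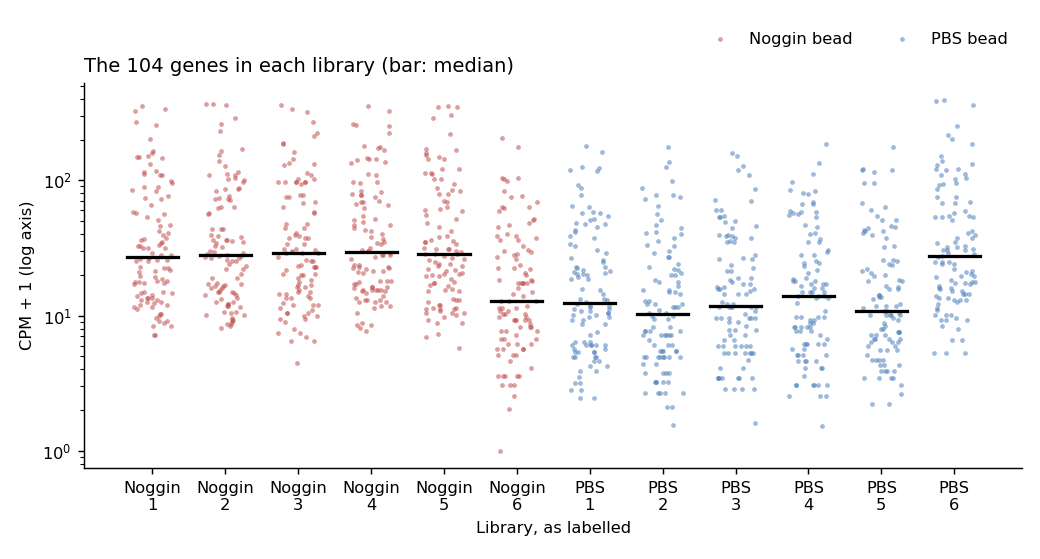
CPM + 1 on a log axis for the 104 genes in each of the 12 libraries as labelled, with a bar at the median. The medians lie at 26.3 to 28.4 CPM in Noggin 1 to 5 and at 9.2 to 12.9 CPM in PBS 1 to 5, while the library labelled Noggin 6 has 11.8 CPM and the library labelled PBS 6 has 26.3 CPM.

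In the libraries that chose them, the genes differed by a median of 1.29 on the log2(CPM + 1) scale, with quartiles of 1.10 and 1.48. The rule used these values, so they are a description and carry no test. The median over all 10195 genes was 0.01. As a ratio of mean CPM, which has no added 1, the group spanned 1.97- to 6.31-fold with a median of 2.57-fold. There were 4 genes above 4-fold and 2 below 2-fold on that scale. The 4 above it had means of 9.08 to 20.5 CPM with Noggin and 1.44 to 4.63 CPM with PBS. At such low PBS levels, adding 1 CPM to both sides pulls the log2 difference down. Summed over the group, the level was 5985 ± 144 CPM in Noggin 1 to 5 and 2430 ± 201 CPM in PBS 1 to 5 (mean ± SD, n = 5 each).

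Most genes of the group had low or moderate levels, which were not compared with the levels of all genes of at least 5 CPM. Its mean levels ran from 5.26 to 255 CPM with a median of 19.6 CPM, and 53 of the 104 lay below 20 CPM. Only 11 reached 100 CPM, with log2 differences of 1.02 to 1.66. The rule holds the difference between 1 and 2 at every level, which leaves little room for it to vary with level. As a description, its median was 1.35 in the 27 genes below 10 CPM, 1.28 in the 26 genes from 10 to 20 CPM, 1.27 in the 26 from 20 to 50 CPM and 1.20 in the 25 at 50 CPM or more. CPM are shares of reads, so these ranks were not taken as an order of numbers of molecules.

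**Figure D2:**
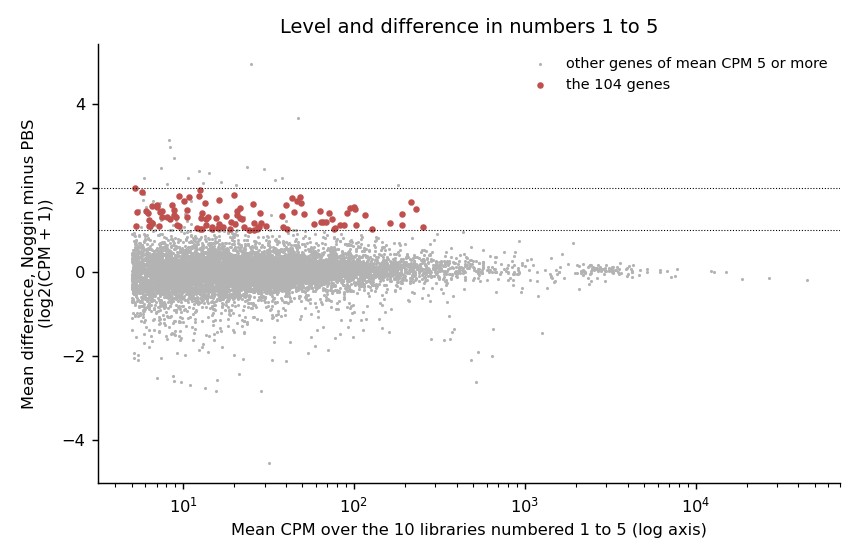
Mean CPM over the 10 libraries numbered 1 to 5 (log axis) against the mean difference, Noggin minus PBS, in log2(CPM + 1), with 1 point per gene of at least 5 CPM. The 104 genes (red) lie between the dotted lines at 1 and 2 and range from 5.26 to 255 CPM.

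The most abundant of the 104 was ENSGALG00010026036. It stood at 327, 363, 334, 355 and 348 CPM in Noggin 1 to 5, against 177, 135, 157, 184 and 175 CPM in PBS 1 to 5. The lowest Noggin library thus held well over the highest PBS library, and the 10 values rest on 242 to 1274 reads each. The mean was 345 ± 14.8 CPM in Noggin 1 to 5, against 166 ± 19.9 CPM in PBS 1 to 5 (SD, n = 5 each), and the log2 difference was 1.06. In the held-out number the order was the reverse: the library labelled Noggin 6 had 203 CPM, against 357 CPM for the library labelled PBS 6.

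The gene ranked 2 by mean CPM had 351, 357, 319, 324 and 352 CPM in Noggin 1 to 5, against 116, 176, 108, 95.6 and 114 CPM in PBS 1 to 5. Its Noggin values were close together and its PBS values spread from below 100 to 176 CPM, with PBS 2 the highest. In number 6 the library labelled Noggin 6 had 103 CPM, against 384 CPM for the library labelled PBS 6. The gene ranked 3 had 336, 369, 358, 256 and 305 CPM in Noggin 1 to 5, against 124, 43.5, 150, 111 and 118 CPM in PBS 1 to 5. Here PBS 2 was the lowest, at 78 reads, so the same library lay at opposite ends of the PBS range in these 2 genes. The library labelled Noggin 6 had 102 CPM of it, against 391 CPM for the library labelled PBS 6.

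On the log2(CPM + 1) scale the largest difference, 1.99, belonged to ENSGALG00010015112, which was also the gene with the lowest mean. That rank changed with a larger pseudocount: with 4 in place of 1 the difference was 1.22 and ranked 30 of the 104. With 0.5 it was 2.26, above the bound of the rule, and ranked 1. The ratio of mean CPM, which has no added 1, was 6.31-fold and also ranked 1. This gene had 12.5, 7.12, 3.47, 10.4 and 12 CPM in Noggin 1 to 5, against 1.45, 1.12, 0.616, 1.55 and 2.47 CPM in PBS 1 to 5. These are 127 reads over the 5 Noggin libraries and 16 over the 5 PBS libraries, and PBS 3 held a single read. The groups did not overlap, but counting error is large at this level. In number 6 it had 0 reads in the library labelled Noggin 6, which allows up to 1.54 CPM, and 10 reads (4.32 CPM) in the library labelled PBS 6. With that limit of 3 reads set against the 10 reads as measured, the level was 2.8-fold lower in the library labelled Noggin 6. Counting error of the 10 reads is not included, so this is not a strict lower bound.

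The edges of the group were not sharp. The member nearest the lower bound differed by 1.0007 with 32.7 ± 6.04 CPM in Noggin and 16 ± 3.63 CPM in PBS, and the nearest gene outside differed by 0.9989 with 37.5 ± 3.55 CPM in Noggin and 18.5 ± 4.17 CPM in PBS (SD, n = 5 each). Above the upper bound, the nearest separated gene differed by 2.06 with 291 ± 15.4 CPM in Noggin and 70.5 ± 16.5 CPM in PBS. The member closest to the level bound, the largest difference given above, averaged 5.26 CPM, and the nearest gene left out averaged 4.91 CPM. Another 31 genes had a level and a mean difference inside the bounds but at least 1 overlapping library, and 34 met every condition but the level. The gap between the lowest Noggin and the highest PBS library was 0.57 on the log2 scale at the median, over 1 in 7 genes and under 0.1 in 11.

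Because the choice fixes the order of numbers 1 to 5, the size of the difference was read in numbers that had no part in choosing the genes. The numbers themselves were not chosen blind. Numbers 1 to 5 were kept, and the number that runs against its labels was set aside, with the direction of this contrast known. The direction seen in a left-out number is therefore partly fixed by that choice. The same rule was applied to 4 of the 5 numbers and the genes found were read in the fifth, which gave sets of 100 to 127 genes that overlap each other and share 86 to 99 members with the 104. In the number left out, the median difference was 0.92 for number 1, 1.28 for number 2, 1.10 for number 3, 1.21 for number 4 and 1.16 for number 5. Their mean was 1.13 ± 0.14 (SD, n = 5 numbers), below the 1.24 to 1.32 of the same sets in the numbers that had chosen them. Each left-out number has 1 library per bead, so no test was made.

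By count, the Noggin library was the higher in number 1 for 122 of 127 genes (all genes of at least 5 CPM: 46.6%), in number 2 for 107 of 114 (54.1%), in number 3 for 112 of 121 (50.6%), in number 4 for 96 of 100 (53.1%) and in number 5 for 110 of 114 (52.9%). A difference over 2-fold was seen in number 1 for 56 of the 127 genes, against 2.39% of all genes, and in number 2 for 74 of the 114, against 4.63%. In number 3 it was seen for 69 genes (all genes, 4.06%), in number 4 for 62 (4.01%) and in number 5 for 70 (3.35%). Number 1 had the smallest median and the largest set. Since numbers 1 to 5 were kept with their direction known, these counts are a description and not an independent check of direction.

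**Figure D3:**
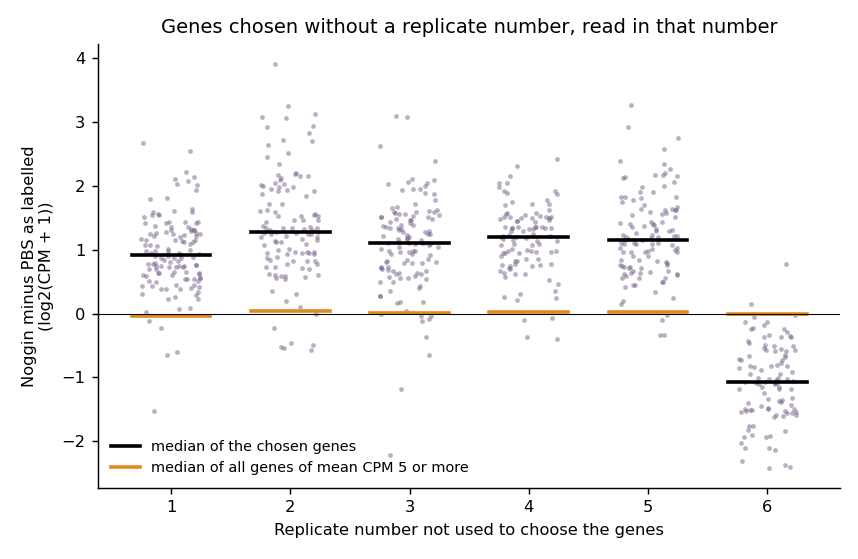
Difference Noggin minus PBS as labelled, in log2(CPM + 1), in each replicate number for genes chosen without that number, with 1 point per gene. Black bars are medians of the chosen genes, at 0.92 to 1.28 in numbers 1 to 5 and -1.07 in number 6, and orange bars are medians of all genes of at least 5 CPM, within 0.05 of 0.

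In number 6 the 104 genes ran against the labels. Number 6 was held out because it runs against its labels, so this order was known beforehand and its counts are a description. The library labelled Noggin 6 was lower than the library labelled PBS 6 for 102 of the 104 genes, against 50.2% of all 10195 genes. It was over 2-fold lower for 60 of them, against 3.4% of all genes, and over 2-fold higher for 0, against 3.5%. The median difference, Noggin 6 minus PBS 6, was -1.07 with quartiles of -1.51 and -0.59, where the median of all genes was -0.001. Its size, with the sign dropped, lies within the range of the medians in the left-out numbers 1 to 5. With 1 library on each side there is no test of this difference.

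For each library of number 6, the levels of the 104 genes were set beside the ranges of both beads in numbers 1 to 5. The shares of all genes within each single range were not computed, so the counts by range are a description only. The 104 genes summed to 2654 CPM in the library labelled Noggin 6, inside the range of PBS 1 to 5 (2168 to 2712 CPM), and to 5738 CPM in the library labelled PBS 6, just under the range of Noggin 1 to 5 (5849 to 6167 CPM). Gene by gene, the library labelled Noggin 6 lay within the range of PBS 1 to 5 for 64 genes, below it for 10, between the 2 ranges for 23 and within the range of Noggin 1 to 5 for 7. The library labelled PBS 6 lay within the range of Noggin 1 to 5 for 65 genes, above it for 13, between the 2 ranges for 24 and within the range of PBS 1 to 5 for 2. Both at once, with Noggin 6 below every Noggin library and PBS 6 above every PBS library of numbers 1 to 5, held for 95 of the 104 genes and for 8.07% of all genes. Depth in number 6 was inside the range of the other libraries, and an exchange of the labels was not tested.

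The reversed order was seen at every level of expression. The library labelled Noggin 6 was lower for 25 of the 27 genes below 10 CPM and for all 77 genes at 10 CPM or more. The median difference was -1.07 in the genes below 10 CPM, -1.06 from 10 to 20 CPM, -1.14 from 20 to 50 CPM and -1.06 at 50 CPM or more. All 11 genes of at least 100 CPM were lower in the library labelled Noggin 6, by 0.51 to 1.93 on the log2 scale, 6 of them over 2-fold. The shares of all genes within these classes of level were not computed, so the counts by level are a description only. Genes with a larger difference in numbers 1 to 5 tended to a larger one of opposite sign in number 6 (Pearson r = -0.43 and Spearman rho = -0.42 over 104 genes). That correlation is across genes of the same libraries, within a narrow range of differences, and is given as a description.

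The 2 exceptions had few reads. The gene ranked 90 by mean CPM had 18 reads in the library labelled Noggin 6 (9.25 CPM), against 19 reads in the library labelled PBS 6 (8.2 CPM), which at this depth cannot be told apart. The gene ranked 95 had 20 reads in the library labelled Noggin 6 (10.3 CPM), against 13 reads in the library labelled PBS 6 (5.61 CPM), a difference of 0.77. This second gene was the single one of the 104 in which all 6 Noggin libraries as labelled lay above all 6 PBS libraries.

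**Figure D4:**
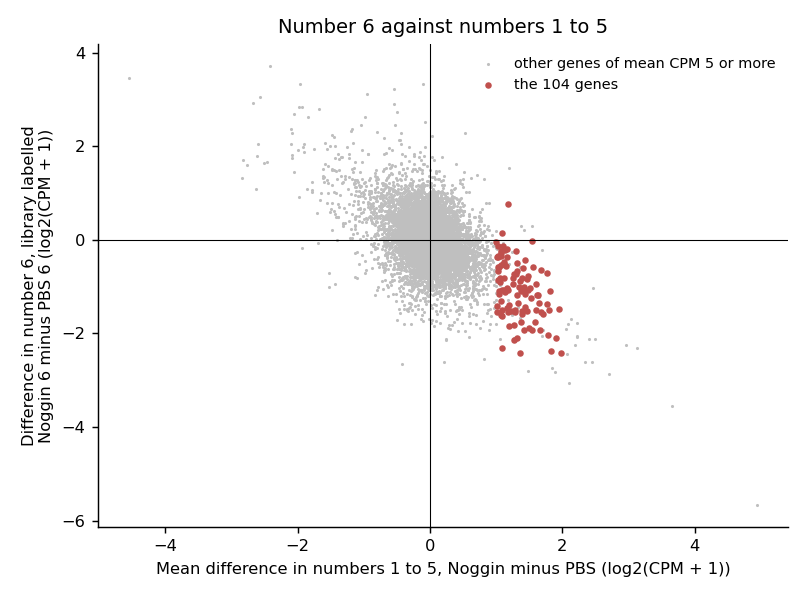
Mean difference in numbers 1 to 5, Noggin minus PBS, against the difference in number 6, library labelled Noggin 6 minus PBS 6, both in log2(CPM + 1), with 1 point per gene of at least 5 CPM. The 104 genes (red) lie above 1 and up to 1.99 on the horizontal axis and 102 of them lie below 0 on the vertical axis.

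How far the 104 genes varied between replicate numbers, whichever bead was used, was tested in numbers 1 to 5. In a balanced set of libraries this question is separate from the difference between beads, although the demand for separated groups favours genes with little spread. Of the 103 that passed the filter on low values, 2 differed between numbers at an adjusted p below 0.05 (limma F test, Benjamini-Hochberg over 10608 genes), or 1.94%, against 2.01% of all genes tested. The share moved with the settings: without a filter on low values 8 of 104 passed (7.69%, against 1.41% of all genes), with a stricter filter 4 of 85 (4.71%, against 2.4%), and without number 1 4 of 103 (3.88%, against 1.93%). With counts this small, no order between the 104 genes and all genes is read from them. The gene ranked 4 by mean CPM had 256, 289, 270, 222 and 350 CPM in Noggin 1 to 5, against 122, 97.6, 118, 78.6 and 119 CPM in PBS 1 to 5 (limma adjusted p = 0.0108). Both of its libraries numbered 4 were the lowest of their bead, and the span of the number means was 0.63 on the log2 scale. The gene ranked 12 had 164, 108, 143, 143 and 148 CPM in Noggin 1 to 5, against 63.6, 32.3, 44.9, 57.9 and 49.8 CPM in PBS 1 to 5 (limma adjusted p = 0.0357). Here both libraries numbered 1 were the highest and both numbered 2 the lowest, a span of 0.77.

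By the same F test without number 2, 73 of all genes (0.687%) passed in place of 213, and of the 103 tested here 1 passed (0.971%). By the mean of both libraries of a number, which does not depend on the labels within it, numbers 2 and 6 were the lowest pair for 7 of the 104 genes, against 10.1% of all genes, and the highest pair for 4, against 5.79%.

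Among the Noggin libraries, Noggin 1 was the lowest for 29 of the 104 genes (24.2% of all genes) and Noggin 4 the highest for 33 (24.2% of all genes). Among the PBS libraries, PBS 2 was the lowest for 34 (27.4% of all genes) and PBS 1 the highest for 29 (22.1% of all genes). No library was thus the lowest of its group for more than 34 of the 104 genes, or the highest for more than 33.

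Relative to their mean, the genes spread more among the PBS than among the Noggin libraries. The coefficient of variation over 5 libraries was 17.5% at the median with Noggin and 30.8% with PBS, and it was the higher with PBS in 88 of the 104 genes, against 59.6% of the other genes of at least 5 CPM. Read counting alone would give 11.8% with Noggin and 21.1% with PBS at these levels and depths. In the 25 genes of at least 50 CPM the medians were 11.4% with Noggin and 21% with PBS, where counting alone would give 5.41% and 9.73%. Relative to counting, the order at the median of the 104 genes was the other way. Measured variance was 2.72 times that of counting with Noggin and 2.11 times with PBS. The medians of the 25 genes of at least 50 CPM, set beside counting, do not show that order. The rule used these values and sets each of the 104 genes lower with PBS, which does not hold for the other genes. The difference in spread was not tested.

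**Figure D5:**
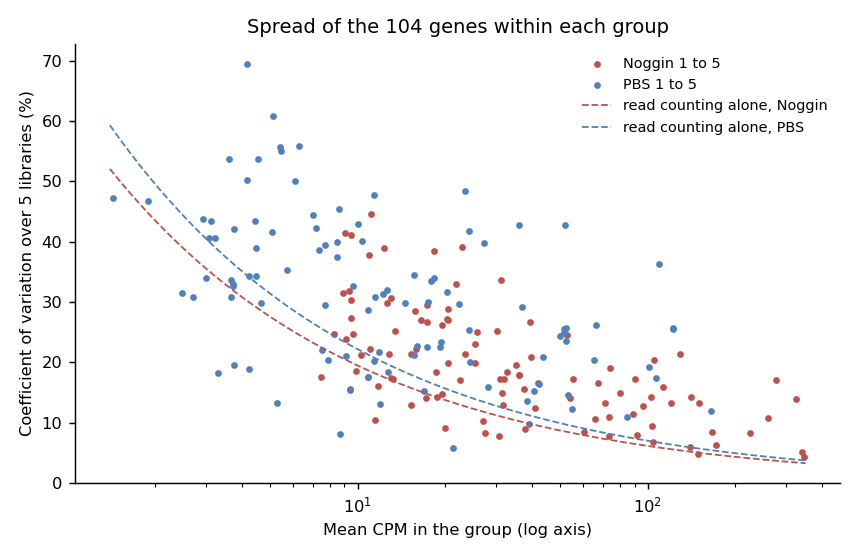
Coefficient of variation over 5 libraries against mean CPM in the group (log axis) for the 104 genes in Noggin 1 to 5 (red) and PBS 1 to 5 (blue). Dashed lines show the spread that read counting alone would give at the mean depth of each group, and the medians are 17.5% with Noggin and 30.8% with PBS.

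In numbers 1 to 5, all 103 genes tested passed an adjusted p of 0.05 as higher with Noggin by limma, where 6.74% of 10608 genes did. The rule used the same contrast, so nothing is read from this count. With all 12 libraries as labelled, the 103 genes tested had a median log2 fold change of 0.92 with a median standard error of 0.32, and 103 were higher with Noggin. Only 1 of them passed an adjusted p of 0.05 (limma), where 0.0567% of 10574 genes passed as higher. It was the gene ranked 42, which averaged 36.1 CPM in Noggin 1 to 5, against 15.7 CPM in PBS 1 to 5, with a log2 fold change as labelled of 0.95 ± 0.19 (SE, limma adjusted p = 0.043). Without the library labelled Noggin 6, 69 of the 104 passed, where 3.1% of all genes passed as higher, and without the library labelled PBS 6, 76 of 103 passed, where 4.07% did (limma). Leaving out any 1 of the other 10 libraries left 0 of them, and 0 of all genes, past the threshold by limma. At an unadjusted p below 0.05 there were 76 to 80 of the 103 or 104 tested. Of all genes, 1197 to 1362 reached that value, with 10705 to 10746 tested. The members were chosen on 10 of these 12 libraries, so none of these counts is read as support for them.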

How the data were processed

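The data are 12 RNA-seq libraries made from 180 ng of total RNA by Lasy-Seq version 1.1, per the labels' protocols. Per the submitters' processing notes, BWA 0.7.17-r1188, fastp 0.21.0 and Salmon were used; their roles, the genome build and the annotation are not given in the sources. The authors deposited 1 table whose values are the natural log of (CPM + 1): undoing the log gives a sum of 1000000 per column. All values are then whole multiples of 1 read within 0.001 read, which gave reads per gene and totals of 1624309 to 3513398 per library. Where a gene has no read, 3 reads were taken as the limit, which is 0.854 to 1.85 CPM depending on the library; depth therefore bounds what can be seen in the weakest genes.

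Libraries were grouped by sample title, and columns tied to libraries by library code. The members, the rule and all tests were chosen with earlier results of these data known. Members were found on unscaled CPM. Tests used limma 3.58.1 in R 4.3.3 on log2(CPM + 1), with trimmed-mean (TMM) factors of 0.981 to 1.03, a mean-variance trend, robust shrinkage and a filter of 4.23 CPM (10 reads at median depth) in as many libraries as the smaller group holds and 15 reads in total. P-values were adjusted by Benjamini-Hochberg over all genes tested. The design had foreseen a count test for counts. The deposited values are logs and limma was used, although whole reads could be recovered from them. The model was tested on simulated data. Since no label ties a library to 1 embryo, p-values reflect only the spread among these libraries, which may be technical. Planned gene lists (22 lists, 351 genes) were not used, since no symbol could be matched. Named by rule were the 2 genes with the highest mean CPM and the largest difference; others are given by rank, chosen after their values were seen. Tables were computed in Python 3.11.15. No 2 libraries were duplicates (chi-square per degree of freedom at least 2.83 over 66 pairs). Alternatives covered scaling, pseudocount, filter, limma-voom, robust shrinkage, the replicate block and left-out libraries.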

Additional observations from a re-analysis of the deposited data

Results flagged for a closer look

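In 15 sets of values examined, 10 held 1 value far from the rest, and all 10 concern number 6. These sets share the same libraries and genes and are not independent. The genes were chosen for separated groups in numbers 1 to 5, and number 6 was held out because it runs against its labels. How far the distant values of number 6 follow from that choice was not tested, and the count is a description with no chance rate beside it. Summed over the 104 genes, the library labelled Noggin 6 stood at 2654 CPM among the 6 Noggin libraries and the library labelled PBS 6 at 5738 CPM among the 6 PBS libraries. The library labelled Noggin 6 had a median level of 11.8 CPM, against 26.3 CPM for the library labelled PBS 6, each apart from its group. The median difference of number 6, -1.07, stood apart from those of the left-out numbers 1 to 5. For ENSGALG00010026036 the distant values were 203 CPM (library labelled Noggin 6) and 357 CPM (library labelled PBS 6). For the gene ranked 2 by mean CPM they were 103 CPM and 384 CPM in the same order, and for the gene ranked 3 it was 391 CPM in the library labelled PBS 6.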

How the results depend on the processing

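The rule found 76 to 138 genes under other scalings, pseudocounts and level bounds, and 100 to 127 with 1 of the numbers 1 to 5 left out, all within 1.5 times of 104. With all 6 numbers as labelled it found 1. Of the 76 genes found with a pseudocount of 4, 62 were among the 104. The median difference in number 6 was -1.08 to -1.01 with members chosen without 1 number, -1.11 to -1.07 under the scalings, the level bounds and a pseudocount of 0.5, and -0.92 with a pseudocount of 4. In the left-out numbers 1 to 5, 19 of 20 values under other scalings and pseudocounts moved by less than the spread between numbers. The log2 difference of ENSGALG00010015112, ranked 1 of the 104, was 1.22 with a pseudocount of 4 and ranked 30.

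The count of the 104 genes that differ between numbers (2 by limma) was 1 by limma-voom, 1 without robust shrinkage, 8 without a low-count filter, 4 with a stricter one and 1 to 4 with 1 number left out. The share of the 104 was below that of all genes by limma-voom (0.971% against 2.22%) and above it under both filter settings, as given with the test. As labelled, 13 genes passed for Noggin against PBS, 32 with a pseudocount of 4, 21 without a filter, 0 without robust shrinkage (1486 at an unadjusted p below 0.05) and 0 to 674 with 1 library left out. Without scaling, and with median-of-ratios factors in place of TMM, 12 passed. Without both libraries numbered 6, a setting added after seeing the data, 1136 passed. As labelled, the 1 of the 104 genes that passed was lost under both of these scalings, without robust shrinkage and with a replicate block. There was 1 with a pseudocount of 0.5, by limma-voom and with a stricter filter, 2 without a filter and 4 with a pseudocount of 4. The causes were not tested. A replicate block left 0 genes past the threshold as labelled (limma, 1382 at an unadjusted p below 0.05) and 1508 in numbers 1 to 5. Same-numbered libraries in numbers 1 to 5 deviated together with r of 0.08 to 0.28, over 0.1 in 4 of 5 numbers, and all 10 libraries correlated best with their own number. The labels place the beads on opposite sides but do not say that a number marks 1 embryo, and r was not over 0.1 in every number. The numbers were therefore not taken as pairs in the main fits. Within numbers 1 to 5, number 3 missed that bound with r of 0.08, against at most 0.01 for its libraries with the other bead of another number. These values hint at pairing, which the main fits ignore. Neither edgeR nor DESeq2 was run, although whole reads were recovered from the deposited logs and used for limma-voom. Changes of genes near 5 CPM rest on few reads in the PBS libraries.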
